A study of Mus musculus with 23 samples.

Results

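Insulin-like growth factor 1 (Igf1) and 6 genes of the system that receives and relays it were described in brain microglia of young, old and repopulated mice. The 7 genes, found by symbol among 53090 genes of the deposited tables, were Igf1, the receptors Igf1r, Igf2r and Insr, the binding protein Igfbp4, and the receptor substrates Irs1 and Irs2. The set was chosen on measured values of Igf1, which was low in old microglia and near the young level after repopulation. The level of Igf1 is therefore described without a test in every comparison, and the other members were tested. Their values did not enter the rule, but the members were chosen with earlier results of these data known.

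The study took 23 samples of microglia from female C57BL/6 mice in 4 groups: young (Y, n = 7), young repopulated (Y-re, n = 3), old (O, n = 5) and old repopulated (O-re, n = 8). Repopulated animals had received PLX5622, an inhibitor of the receptor CSF1R on which microglia depend, in AIN-76A chow at 1200 ppm, and had then regained microglia. Per the labels' protocols, treatment controls ate the same chow without the drug. Not given in the sources used here are ages, how long the drug was fed and how long repopulation lasted. Magnetic CD11b selection with culture and RNA from sorted microglia are both described in the protocols. The libraries are taken here as those of sorted cells, as the RNA text says.

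IGF1 is a secreted growth factor that binds the receptor tyrosine kinase IGF1R and, more weakly, the insulin receptor. Active receptors phosphorylate the substrates IRS1 and IRS2, which recruit PI3-kinase and switch on AKT and mTORC1, while AKT keeps FOXO transcription factors out of the nucleus. IGF2R carries no kinase: it takes up IGF2 for breakdown and sorts mannose-6-phosphate-tagged enzymes to lysosomes. Binding proteins such as IGFBP4 hold IGFs outside the cell. In the brain, microglia are a known source of IGF1, which acts on neurons, oligodendrocytes and the microglia themselves.

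Total counts ranged from 43.66 to 58.19 M (megacounts) per library. Microglial marker genes were abundant in every group: the summed level of 12 homeostatic markers had a median of 32300 TMM-scaled CPM (counts per megacount of the library) in Y, 26390 in Y-re, 21130 in O and 16700 in O-re. Summed markers of other myeloid cells had higher medians outside Y, though not every gene was higher. The 8 border-associated macrophage markers summed to 58.9 to 223 CPM in Y, 295 to 411 in Y-re, 185 to 879 in O and 70.3 to 1235 in O-re. The 12 monocyte and neutrophil markers summed to 36.9 to 295, 135 to 402, 269 to 2181 and 159 to 2960 CPM in the same groups. Of the 8 macrophage markers, 6 had positive and 2 negative log2 fold changes in Y-re against Y, as in O-re against Y. In O against Y all 8 were positive, and all 12 monocyte and neutrophil markers were positive in each of these comparisons. In Y-re against Y, 1 of the 8 (Ms4a7) and 0 of the 12 passed an adjusted p of 0.05 by edgeR, beside 1.34% of all genes. In O against Y, 2 of the 8 and 7 of the 12 passed, all higher in O, beside 2.83% of all genes. In O-re against Y, 5 of the 8 and 8 of the 12 passed, all higher in O-re, beside 15.2%. In O-re against O, 0 of the 8 and 0 of the 12 passed, beside 0.278%. Neuron markers summed to at most 5.16 CPM and lymphocyte markers to at most 3.89 CPM in any library. Over all libraries astrocyte markers summed to 21.1 to 179.6 CPM and oligodendrocyte markers to 95.7 to 138.7 CPM. Endothelial and mural markers summed to 21.6 to 89.8 CPM, and fibroblast and meningeal markers to 0.0939 to 52.7 CPM. Library numbers in the sample titles form 1 series, which was divided here between 11 and 12, where the order of groups begins again with Y. The lower run is 1 to 11 (3 Y, 2 O and 5 O-re) and the higher run 12 to 24 (4 Y, 3 O, 3 O-re and all 3 Y-re). The labels do not say whether these runs are batches. Values within the runs are given where they bear on a result. In such bulk samples, a change in the share of a cell type and a change in RNA per cell cannot be told apart.

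The promoter sequences of Igf1 and Igf1r are shown because these genes, the ligand and its receptor, had different patterns across the 4 groups. RefSeq (GRCm38.p6) gave a window of 300 bases, 250 before the start and 50 after it, for 6 of the 7 members, and none for Insr. The Igf1 window lies at chr10:87860861-87861160 on the plus strand, inside the gene's annotated interval (GENCODE M21, chr10, 87858265 to 87937042). The Igf1r window lies at chr7:67952007-67952306 on the plus strand, just upstream of the GENCODE gene (67952827 to 68233668). Each window was searched on both strands for GTAAACA (core of FOXO sites), GAGGAA (core of PU.1 sites, the myeloid master factor), TATAAA (the box bound by TBP), GGGCGG (GC box) and TGACGT (part of a cyclic AMP response element), and matches are in capitals.
Igf1: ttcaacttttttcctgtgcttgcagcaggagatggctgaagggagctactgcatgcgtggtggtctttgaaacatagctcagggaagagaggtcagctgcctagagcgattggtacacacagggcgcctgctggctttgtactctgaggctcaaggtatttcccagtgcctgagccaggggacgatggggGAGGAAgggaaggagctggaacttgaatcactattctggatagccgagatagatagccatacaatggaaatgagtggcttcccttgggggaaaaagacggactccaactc
Igf1r: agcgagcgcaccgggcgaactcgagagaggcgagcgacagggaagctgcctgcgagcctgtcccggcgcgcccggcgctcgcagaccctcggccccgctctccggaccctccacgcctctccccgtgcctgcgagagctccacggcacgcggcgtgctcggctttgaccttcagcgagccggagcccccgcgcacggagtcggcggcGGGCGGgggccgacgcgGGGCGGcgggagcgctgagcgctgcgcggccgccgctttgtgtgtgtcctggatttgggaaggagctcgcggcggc
The Igf1 window held 1 match, GAGGAA, which begins 60 bases before the start and occurs in 28.3% of 32851 mouse promoter windows. The Igf1r window held 2 GC boxes, 43 and 26 bases before the start, and 35.7% of all windows held at least 1. No member's window held the FOXO core, which occurred in 3.65% of windows. In base composition the windows differed: Igf1 had 52.3% G and C with 6 CpG dinucleotides, near the median of all windows (52.7% and 7.0), while the other 5 members had 70.7 to 76.0% and 27 to 48 CpG. These matches are descriptions of the letters and say nothing about binding.

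Igf1, the ligand, was low in old microglia, and stood in repopulated microglia of either age near the level of young ones. In young microglia, its level was 44.3 CPM in replicate 1, 71.0 in replicate 2, 44.9 in replicate 3, 104.6 in replicate 4, 129.9 in replicate 5, 171.2 in replicate 6 and 142.5 in replicate 7. In old microglia, replicates 1 to 5 had 27.7, 47.9, 13.9, 24.1 and 24.5 CPM, so that only replicate 2 reached the range of the young libraries. The 3 young repopulated libraries had 122, 95.9 and 112 CPM. Old repopulated replicates 1 to 8 had 34.7, 150.1, 86.0, 158.5, 78.6, 127.8, 125.6 and 76.4 CPM, and 7 of the 8 were above all old libraries, with replicate 1 inside the old range.

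**Figure D1:**
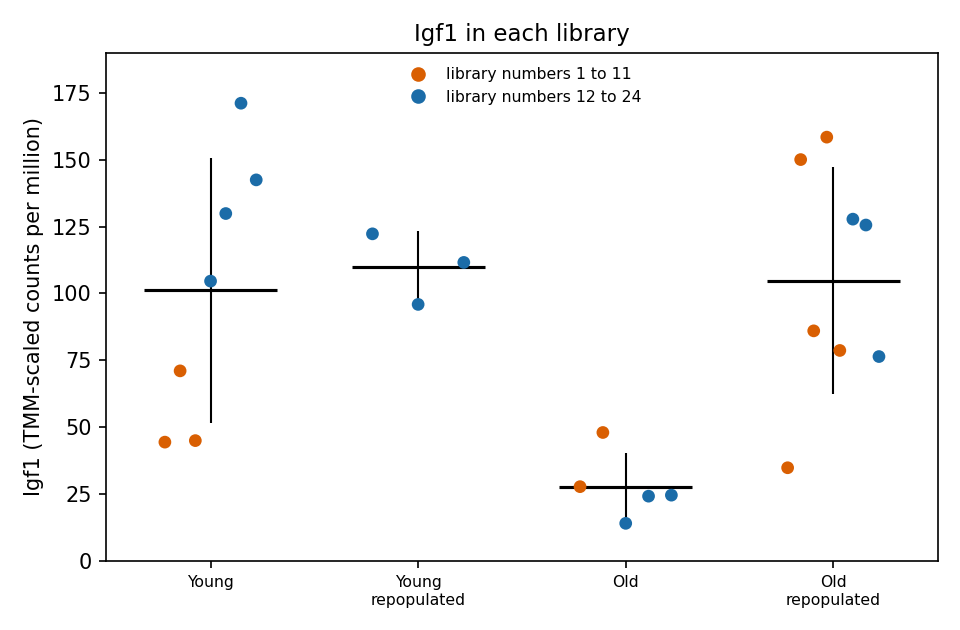
Igf1 in TMM-scaled CPM (vertical axis) in each of the 23 libraries, by group; points are libraries coloured by the run of library numbers, lines are group means and bars 1 SD. Old libraries lie between 13.9 and 47.9 CPM, and the young libraries of the lower run (44.3 to 71.0) lie below those of the higher run (104.6 to 171.2).

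Mean levels were 101.2 ± 49.6 CPM in Y (SD, n = 7), 109.9 ± 13.3 in Y-re (n = 3), 27.6 ± 12.5 in O (n = 5) and 104.7 ± 42.5 in O-re (n = 8). From lowest to highest the order was O, Y, O-re and Y-re, and the last 3 differed by less than their spread. The log2 fold change was -1.87 ± 0.38 (SE) in O against Y and 1.92 ± 0.38 in O-re against O, the values that chose the set, and 0.05 ± 0.32 in O-re against Y. In Y-re against Y, which shares the young libraries with that choice, the log2 fold change was 0.12 ± 0.42.

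The size of the old-to-young difference in Igf1 depended on the run. In library numbers 1 to 11, Y had 53.4 ± 15.2 CPM (n = 3) and O 37.8 ± 14.3 (n = 2), a log2 fold change of -0.50. In library numbers 12 to 24, Y had 137.1 ± 27.7 CPM (n = 4) and O 20.8 ± 5.99 (n = 3), a log2 fold change of -2.71. Repopulation in old mice went with a higher level in both runs, with log2 fold changes of 1.44 and 2.40, whereas O-re stood above Y in the lower run (0.94) and below it in the higher run (-0.31). Young repopulated libraries exist only in the higher run, where Y-re against Y was -0.29. The runs also differed in genes with a count. In Y these numbered 16399 to 19260 in the lower run and 21228 to 22078 in the higher run. In O they numbered 18995 to 19953 and 20796 to 22208, and in O-re 18363 to 19698 and 20426 to 21325. Y-re, in the higher run only, had 17620 to 20523. Whether the run stands for a technical difference was not tested.

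The deposited effective length, a mean over a gene's transcripts weighted by their estimated abundance, describes which Igf1 transcripts were present and was not used to choose the set. For Igf1 it averaged 2451 ± 339 bases in Y (SD, n = 7), 2112 ± 112 in Y-re (n = 3), 2050 ± 142 in O (n = 5) and 2266 ± 219 in O-re (n = 8). The difference between O and Y, -402 bases, had p = 0.0126 by an exact two-sided permutation test and 0.252 after adjustment over 20 length comparisons, so it did not pass. Young replicate 3 had the longest mean transcript (3143 bases), and without single libraries the difference ranged from -450.2 to -286.4 bases. Igf1r, Igf2r, Insr and Igfbp4 also had several transcripts, and none of their length differences passed (adjusted p of 0.573 or more).

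**Figure D2:**
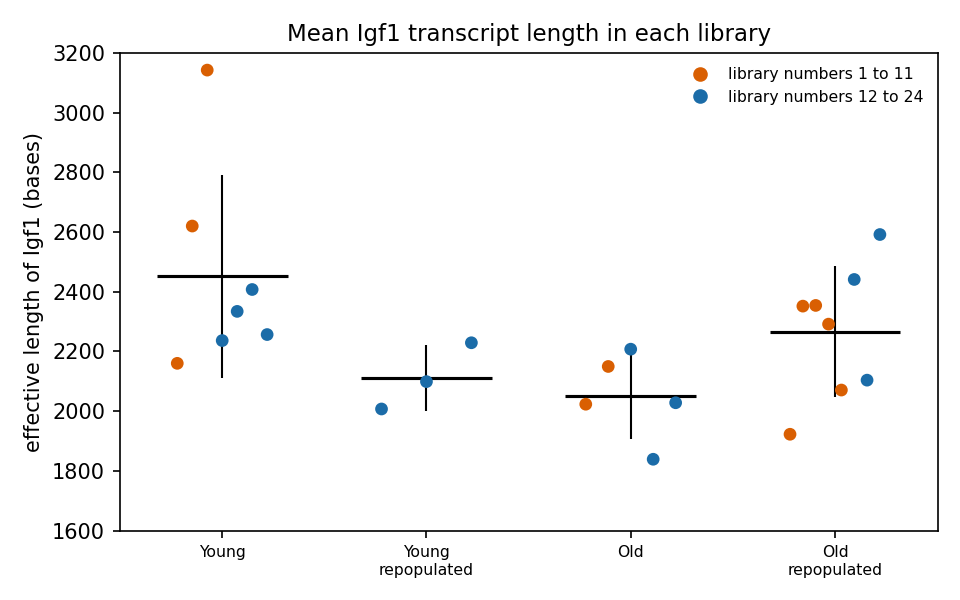
Effective length of Igf1 in bases (vertical axis, not starting at 0) in each library by group; points are libraries, lines are means and bars 1 SD. Old libraries span 1839 to 2208 bases and young ones 2160 to 3143 bases, and the difference did not pass after adjustment.

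Per unit of length, Igf1 had the highest mean of the members in young microglia. The deposited TPM, a level per transcript length and library, averaged 73.3 ± 39.4 for Igf1, 26.4 ± 6.22 for Igfbp4, 16.8 ± 4.55 for Irs2, 11.2 ± 1.73 for Insr, 6.99 ± 3.11 for Igf2r and 6.22 ± 1.53 for Igf1r (SD, n = 7). Irs1 averaged 0.0143 TPM. Igf2r and Igf1r differed by less than their spread. In old microglia Irs2 (26.02 ± 8.12 TPM), Igf1 (23.2 ± 9.72) and Igfbp4 (21.02 ± 8.38) were within each other's spread (n = 5).

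The other ligands of the system were at low levels. Igf2 averaged 1.14 ± 0.944 CPM in Y (n = 7), 1.204 ± 0.131 in Y-re (n = 3), 0.888 ± 0.675 in O (n = 5) and 0.670 ± 0.299 in O-re (n = 8), and was called in no comparison. Ins1 was listed at 0 in all 23 libraries, and Ins2, the other mouse insulin gene, in all but old repopulated libraries, where the highest had 0.300 CPM.

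Igf1r, the receptor that binds IGF1 most strongly, was lower in repopulated microglia of both ages than in young microglia. Young replicates 1 to 7 had 37.6, 32.7, 18.9, 42.4, 39.7, 33.97 and 35.8 CPM. The young repopulated libraries had 12.1, 11.8 and 15.5 CPM, all below the lowest young library. Old replicates 1 to 5 had 34.4, 28.1, 30.7, 35.4 and 22.5 CPM, within the young range. Old repopulated replicates 1 to 8 had 25.6, 7.87, 25.8, 22.1, 18.1, 15.4, 12.04 and 12.7 CPM, and 5 of the 8 lay below every young and old library.

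Igf1r fell by 1.39 ± 0.30 on the log2 scale in Y-re against Y (adjusted p = 0.0233, edgeR) and by 0.98 ± 0.21 in O-re against Y (adjusted p = 0.00388). In O-re against O the log2 fold change was -0.79 ± 0.23 with an adjusted p of 0.133, which missed the threshold of 0.05, and in O against Y it was -0.19 ± 0.24 (adjusted p = 0.782). The change on repopulation was not shown to differ between ages: the interaction was 0.59 ± 0.37 (adjusted p = 0.725). From lowest to highest the order of means was Y-re (13.2 ± 2.06 CPM), O-re (17.5 ± 6.60), O (30.2 ± 5.22) and Y (34.4 ± 7.62), and Y-re and O-re, like O and Y, differed by less than their spread. Without any single Y-re library the call in Y-re against Y was lost (adjusted p of 0.064 to 0.183), as it was with an offset from effective lengths (0.0663), while all 23 fits that left out 1 library kept the call in O-re against Y. Within the lower run O-re against Y was -0.58 (adjusted p = 0.542), and within the higher run it was -1.50 (6.08e-05), where Y-re against Y (-1.50, 0.00041) and O-re against O (-1.14, 0.00367) also passed.

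**Figure D3:**
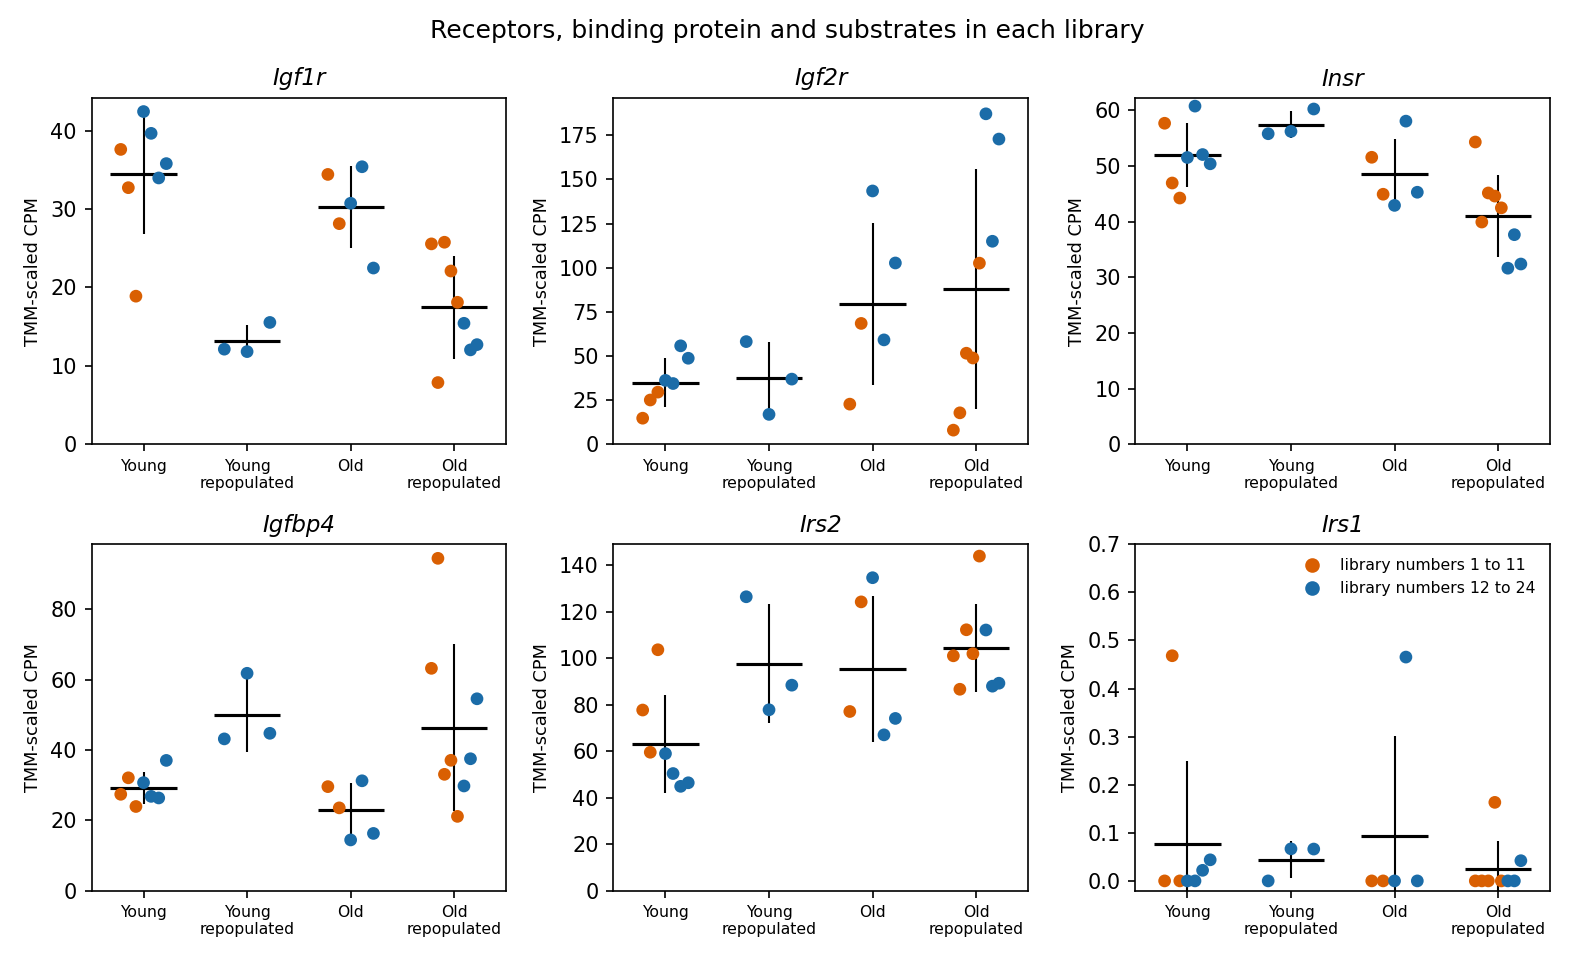
Levels of 6 members in TMM-scaled CPM (vertical axes, a scale of its own for each gene) in each library by group; points are libraries coloured by the run of library numbers, lines are means and bars 1 SD. The 3 young repopulated libraries lie below all young libraries for Igf1r (11.8 to 15.5 against 18.9 to 42.4 CPM), and Irs1 is at 0 in most libraries.

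Insr, the insulin receptor, had the smallest standard errors of the tested members on the log2 scale. It ranged from 44.2 to 60.7 CPM in Y (median 51.5, n = 7) and from 31.6 to 54.3 CPM in O-re (median 41.2, n = 8). The 3 Y-re libraries had 55.8, 56.2 and 60.2 CPM and the 5 O libraries 51.5, 44.9, 42.9, 58.0 and 45.3 CPM. The ranges of Y and O-re overlapped, and the 3 lowest libraries were the O-re libraries of the higher run (31.6, 37.6 and 32.4 CPM). Insr fell by 0.34 ± 0.10 on the log2 scale in O-re against Y (adjusted p = 0.0278). In O-re against O the log2 fold change was -0.24 ± 0.11 (adjusted p = 0.444), in Y-re against Y 0.14 ± 0.14 (0.687) and in O against Y -0.10 ± 0.12 (0.766). The call in O-re against Y was lost without young replicate 1 or 5 or old repopulated replicate 6, 7 or 8 (adjusted p of 0.0574 to 0.0744), with only the groups compared (0.0542) and with the effective-length offset (0.136). Within the lower run the difference was -0.13 (adjusted p = 0.779) and within the higher run -0.66 (0.000862), where O-re against O also passed (-0.53, 0.0187).

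Igf2r, the scavenger receptor, had the largest standard errors of the tested members. Young replicates 1 to 7 had 14.8, 25.1, 29.5, 36.2, 34.4, 55.8 and 48.7 CPM, and the young repopulated libraries 58.2, 16.9 and 36.9 CPM. Old replicates 1 to 5 had 22.7, 68.5, 143.5, 59.1 and 102.7 CPM. Old repopulated replicates 1 to 8 had 8.00, 17.8, 51.6, 48.9, 102.6, 187.2, 115.0 and 172.9 CPM, and so held both the lowest and the highest libraries of the study. The log2 fold change was 1.33 ± 0.51 in O-re against Y (adjusted p = 0.0785), 1.18 ± 0.56 in O against Y (0.313), 0.15 ± 0.55 in O-re against O (0.973) and 0.10 ± 0.66 in Y-re against Y (0.969), so Igf2r was called in no comparison of all libraries.

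The libraries with the highest Igf2r also had high sums of markers of other myeloid cells. These 3, old repopulated replicates 6 and 8 and old replicate 3, are all of the higher run. Their border-associated macrophage sums were 1235, 1191 and 879 CPM and their monocyte and neutrophil sums 2960, 1130 and 2181 CPM. The medians of these sums were 433 and 835 CPM in O, 656 and 565 in O-re, and 127 and 51.6 in Y. The lowest, old repopulated replicate 1, had sums of 70.3 and 159 CPM, while old repopulated replicate 2 had little Igf2r (17.8 CPM) with a macrophage sum of 810 CPM. The part of these cells in the Igf2r values was not tested. Within the higher run Igf2r passed in O against Y (1.22, adjusted p = 0.0393) and in O-re against Y (1.86, 0.00161), and within the lower run it did not (0.97, 1.0 and 0.98, 0.606). Igf2r is overlapped on the other strand by the noncoding Airn, and no source used here states whether counting used strand.

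**Figure D4:**
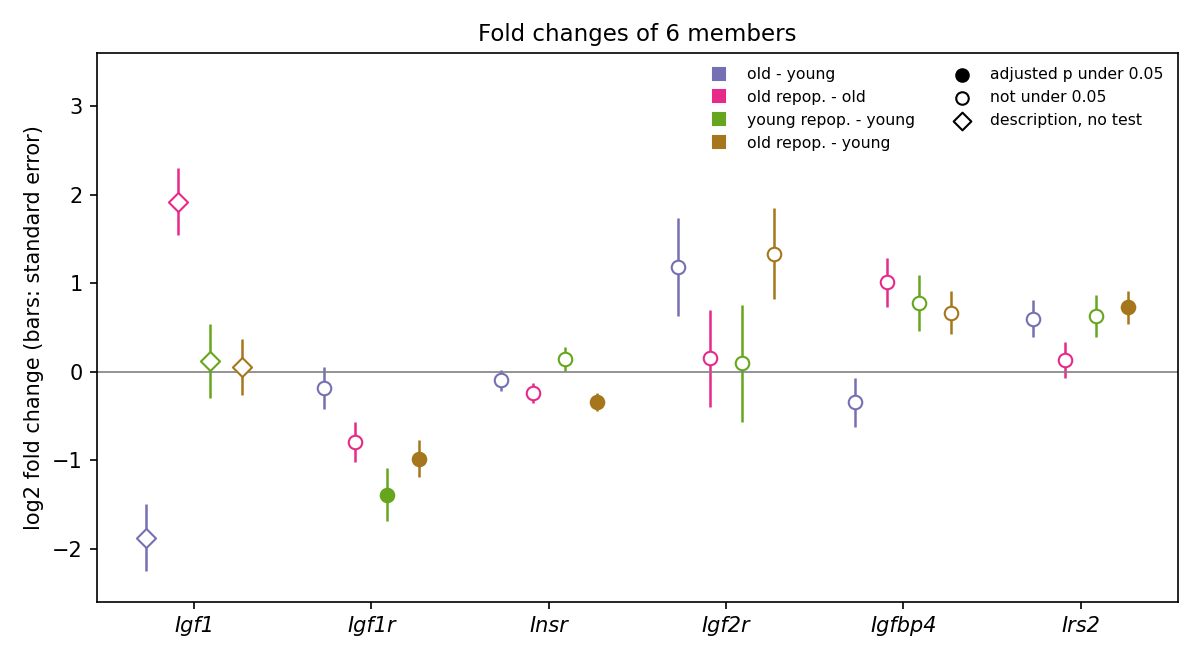
Log2 fold changes (vertical axis) of the 6 members that passed the low-count filter, in 4 comparisons; circles are estimates, bars 1 standard error, filled circles passed an adjusted p of 0.05, and diamonds are Igf1 values given without a test. Filled circles belong to Igf1r in 2 comparisons and to Insr and Irs2 in O-re against Y.

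Igfbp4, the binding protein, had its highest means in the repopulated groups, with no comparison of all libraries past the threshold. Young libraries ranged from 23.9 to 37.0 CPM (median 27.4, n = 7), and the 3 young repopulated libraries had 43.1, 61.8 and 44.7 CPM, all above the highest young library. Old libraries had 29.6, 23.5, 14.4, 31.2 and 16.2 CPM, and old repopulated ones ranged from 21.1 to 94.5 CPM (median 37.3, n = 8). The log2 fold change was 1.01 ± 0.28 in O-re against O (adjusted p = 0.118), 0.77 ± 0.31 in Y-re against Y (0.238), 0.67 ± 0.24 in O-re against Y (0.0669) and -0.34 ± 0.28 in O against Y (0.615). The highest library, old repopulated replicate 2 with 94.5 CPM, had a macrophage marker sum of 810 CPM, and the part of such cells in its level was not tested. Igfbp4 in O-re against O was 0.92 (adjusted p = 1.0) within the lower run and 0.97 (0.0477), past the threshold, within the higher one, and in O-re against Y it was 0.85 (0.465) and 0.44 (0.224). DESeq2 called Igfbp4 in O-re against O (adjusted p = 0.0177) and in O-re against Y (0.0369).

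Of the other binding proteins, 1 was called. Igfbp5 averaged 2.78 ± 2.33 CPM in Y (n = 7) and 4.44 ± 2.11 in O-re (n = 8), and Igfbp6 1.67 ± 2.00 and 3.07 ± 2.39 CPM, neither called. Igfbp1, which is made mainly in liver, was listed at 0 in every library. Igfbp2 fell by 2.11 ± 0.64 on the log2 scale in O-re against Y (adjusted p = 0.0286), from a range of 0.198 to 2.26 CPM to one of 0 to 0.399 CPM. By edgeR its log2 fold change was -0.22 ± 0.83 in Y-re against Y (adjusted p = 0.938) and -1.34 ± 0.73 in O against Y (0.397). Igfbp2 is also made by meningeal cells. The 7 fibroblast and meningeal markers summed to 1.04 to 52.7 CPM in Y and 0.511 to 2.2 in Y-re. They summed to 0.341 to 26.4 CPM in O and 0.0939 to 5.99 in O-re. The part of meningeal cells in the Igfbp2 values was not tested. The call in O-re against Y was lost without young replicate 2 or 3 or old repopulated replicate 7 (adjusted p of 0.056 to 0.064) and within either run (0.406 and 0.36). Pappa, the protease that cleaves IGFBP4, averaged 0.00442 CPM in O and was listed at 0 in the other groups.

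Irs2, a substrate that links the receptors to PI3-kinase, was higher in old repopulated than in young microglia. Young replicates 1 to 7 had 77.7, 59.5, 103.6, 58.9, 50.3, 44.8 and 46.4 CPM. The young repopulated libraries had 126.4, 77.8 and 88.4 CPM, and old replicates 1 to 5 had 77.0, 124.2, 134.6, 67.0 and 74.1 CPM. Old repopulated libraries ranged from 86.6 to 143.9 CPM (median 101.5, n = 8), above 6 of the 7 young libraries. Irs2 rose by 0.73 ± 0.19 on the log2 scale in O-re against Y (adjusted p = 0.0124), and all 23 fits that left out 1 library kept that call. The log2 fold change was 0.63 ± 0.24 in Y-re against Y (adjusted p = 0.209), 0.60 ± 0.21 in O against Y (0.141) and 0.13 ± 0.21 in O-re against O (0.918). The lowest mean was that of Y (63.0 ± 21.04 CPM), and O (95.4 ± 31.5), Y-re (97.5 ± 25.6) and O-re (104.4 ± 18.96) differed by less than their spread. Within the lower run O-re against Y was 0.45 (adjusted p = 0.48) and within the higher run 0.95 (0.00459). Irs2 also passed within the higher run in O against Y (0.88, adjusted p = 0.019) and in Y-re against Y (0.99, 0.017), and in O against Y it was 0.32 (1.0) within the lower run.

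Irs1, the related substrate best known from muscle and fat, was barely detected and was not tested. It had no count in 15 of 23 libraries, which allows a level of up to 0.0562 to 0.0689 CPM in those libraries (3 counts, counting error only). The other 8 had 1 to 23 counts, the highest being young replicate 2 with 0.468 CPM and old replicate 4 with 0.465 CPM.

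Over the members, 5 other than Igf1 were tested in each comparison, and the share of all 18720 genes called gives the background. In O against Y none was called, beside 2.83% of all genes (2.6% higher and 0.235% lower in O). In O-re against O none was called, beside 0.278% (0.0641% higher and 0.214% lower). In Y-re against Y 1 was called, Igf1r, beside 1.34% (0.828% higher and 0.513% lower). In O-re against Y 3 were called, Irs2 higher and Igf1r and Insr lower, beside 15.2% (9.29% higher and 5.92% lower). In O-re against Y-re and in the interaction edgeR called 0.0% of genes, with 2183 and 1542 genes at an unadjusted p under 0.05. For these comparisons DESeq2 called 81 and 44 genes, and voom with sample quality weights 3189 and 151. O against Y, Y-re against Y and O-re against Y share the 7 young libraries.

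Calls depended on the run over all genes as well as for the members. Within library numbers 12 to 24 edgeR called 15.7% of 17186 genes in O against Y, 12.7% in O-re against O, 9.3% in Y-re against Y, 41.1% in O-re against Y, 36.3% in O-re against Y-re and 8.87% in the interaction. Of the 5 tested members other than Igf1, those called were Igf2r and Irs2 in O against Y, Igf1r, Insr and Igfbp4 in O-re against O, Igf1r and Irs2 in Y-re against Y, and Igf1r, Igf2r, Insr and Irs2 in O-re against Y. Igf2r (2.06, adjusted p = 0.00254) and Insr (-0.78, 0.000902) were called in O-re against Y-re, and Insr in the interaction (-0.65, 0.0335). Within library numbers 1 to 11 no member was called, beside 0.00533% of 18746 genes in O against Y, 0.0% in O-re against O and 0.0107% in O-re against Y. The lower run holds 2 O libraries and no Y-re library.

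The rest of the system was read from a list of 92 genes by role, of which 79 passed the filter on low counts, 73 of them outside the 7 members. Among those 73, Gab1 alone was called in O-re against O and Gab2 alone in Y-re against Y, 1.37% of the list each time. In O-re against Y 9 of 73 were called (12.3%, beside 15.2% of all genes), 5 higher and 4 lower. The median log2 fold change of the 73 was 0.04 in O against Y, -0.04 in O-re against O, 0.00 in Y-re against Y and 0.07 in O-re against Y, beside -0.01, 0.00, -0.04 and -0.02 over all genes. With the members, 12 of 79 genes were called in O-re against Y (15.2%, beside 15.2% of all genes). Within the lower run the count was 0, beside 0.0107% of all genes, and within the higher run 41, beside 41.1%. Without old repopulated replicate 1 the count was 22. The share over all genes in that fit is not given here, so this count is not read as a trait of the list. A share of 1.37% is a single gene, so it cannot be read against the backgrounds of 0.278% and 1.34%.

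Of 10 tested receptor substrates and adaptors, 1 was called in O-re against O (Gab1, lower) and 1 in Y-re against Y (Gab2, higher), with median log2 fold changes of -0.02 and 0.01 over the 10. Gab1, a docking protein that recruits PI3-kinase and the phosphatase SHP2, had 53.9 ± 7.29 CPM in Y (n = 7), 33.7 ± 3.00 in Y-re (n = 3), 52.7 ± 7.21 in O (n = 5) and 32.2 ± 6.84 in O-re (n = 8). No O-re library (19 to 41.0 CPM) reached the range of O (42.9 to 61.5) or of Y (43.8 to 67.6). Gab1 fell by 0.71 ± 0.14 in O-re against O (adjusted p = 0.0305) and by 0.74 ± 0.13 in O-re against Y (0.00087), and in Y-re against Y the log2 fold change was -0.68 ± 0.17 (0.0514). The call in O-re against O was lost without old replicate 1, 3, 4 or 5 or old repopulated replicate 4 (adjusted p of 0.0545 to 0.12), and within the lower and higher runs the log2 fold change was -0.62 (1.0) and -0.77 (0.00409). Gab2, its close relative, rose by 0.41 ± 0.10 in Y-re against Y (adjusted p = 0.0455), from 135.6 ± 17.4 CPM to 179.8 ± 10.7, a call that 13 of the 23 fits without 1 library lost (up to 0.233).

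The 9 genes called in O-re against Y (12.3% of 73, beside 15.2% of all genes) include members of the PI3-kinase, mTORC1 and RAS branches. Akt1, the main AKT of most tissues, rose by 0.26 ± 0.08 on the log2 scale (adjusted p = 0.0347), and 9 of 23 fits without 1 library lost that call. Pik3r1, the main regulatory subunit of PI3-kinase, fell by 0.65 ± 0.14 (0.0049), from 296.3 ± 40.9 CPM to 188.5 ± 41.7. Phlpp2, a phosphatase that switches AKT off, fell by 0.66 ± 0.18 (0.0176). In the mTORC1 branch Deptor, an inhibitor of mTOR, rose by 0.98 ± 0.22 (0.00546), from 13.1 ± 1.38 CPM in Y to 25.9 ± 12.8 in O-re, and Eif4ebp1, the translation repressor that mTORC1 inactivates, rose by 0.78 ± 0.18 (0.0067), from 14.9 ± 1.41 CPM to 25.7 ± 8.46. Sos2, an exchange factor that loads RAS, rose by 0.34 ± 0.08 (0.00801). Within the higher run all 6 of these genes passed (adjusted p of 0.000159 to 0.00564). Within the lower run none passed (0.399 to 0.733), while the log2 fold changes had the same signs, among them 1.17 for Deptor, -0.66 for Phlpp2, -0.52 for Pik3r1 and 0.15 for Akt1.

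**Figure D5:**
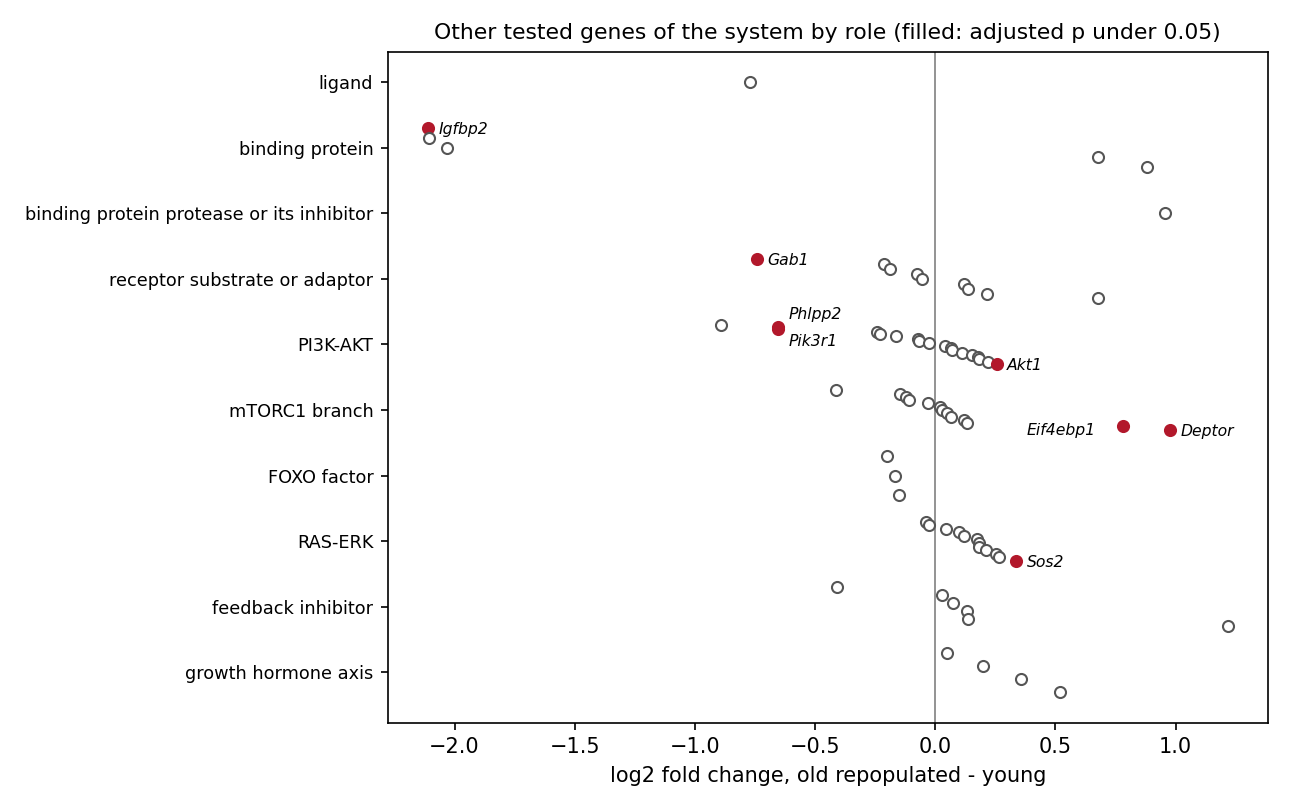
Log2 fold change in O-re against Y (horizontal axis) of tested genes of the system outside the 7 members, in rows by role; each point is a gene and filled points passed an adjusted p of 0.05. The filled points are Akt1, Deptor, Eif4ebp1 and Sos2 on the right and Igfbp2, Gab1, Pik3r1 and Phlpp2 on the left.

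FOXO factors, which AKT holds back, were not called, and 6 of 18 listed FOXO target genes were called in O-re against Y. Foxo3 had 99.4 ± 17.3 CPM in Y (n = 7), 107.9 ± 3.15 in Y-re (n = 3), 99.4 ± 16.2 in O (n = 5) and 88.4 ± 16.5 in O-re (n = 8), and Foxo4 31.3 ± 2.27, 30.7 ± 2.84, 30.5 ± 2.22 and 28.2 ± 5.31 CPM. Of the targets, Irs2 and Cdkn1b, a brake on the cell cycle, rose, and Insr, Sesn3, Trib1 and Bnip3 fell, so the calls ran both ways (33.3% of the list, beside 15.2% of all genes). Irs2 and Insr are also members whose calls are given above, so this share is not separate from them. Cdkn1b rose by 0.32 ± 0.09 on the log2 scale (adjusted p = 0.0205). Sesn3, a sestrin that restrains mTORC1, fell by 0.39 ± 0.11 in O-re against Y (0.0189) and by 0.66 ± 0.15 in Y-re against Y (0.0318). Trib1, a pseudokinase, fell by 0.36 ± 0.12 in O-re against Y (0.047) and by 0.61 ± 0.13 in O-re against O (0.0464), and Bnip3, a mitophagy receptor, fell by 0.41 ± 0.13 in O-re against Y (0.0332). In O against Y none of the 18 was called, and their median log2 fold changes were -0.04 in O against Y, -0.08 in O-re against O, -0.22 in Y-re against Y and -0.32 in O-re against Y. Of the 23 fits without 1 library, 6 kept Trib1 in O-re against Y and 4 kept it in O-re against O, 14 kept Bnip3 in O-re against Y and 15 kept Sesn3 in Y-re against Y. In O-re against Y, Sesn3 passed in neither run (-0.45, adjusted p = 0.44, and -0.29, 0.114), nor did Trib1 (-0.47, 0.433, and -0.24, 0.153), while Cdkn1b (0.35, 0.021) and Bnip3 (-0.50, 0.0176) passed within the higher run.

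Genes whose levels followed Igf1 most closely across libraries were ranked by Pearson's r of log2 CPM over all 23 libraries, among 9556 genes of a mean of at least 5 CPM. Predicted genes and pseudogenes, known by symbols such as Gm with digits or Rik, were left out. The libraries share their groups and runs, so r is a description and carries no p. The highest values were those of Ttyh2 (0.879), Colec12 (0.861), Ctla2a (0.814), Pank3 (0.782), H1f0 (0.774), Mical2 (0.774), Adam17 (0.770) and Gusb (0.770). Over the genes compared the median was 0.031, and the 5th and 95th percentiles were -0.439 and 0.465. Ttyh2, which encodes a membrane protein of the tweety family, had 32.2 ± 8.31 CPM in Y (n = 7), 39.3 ± 7.21 in Y-re (n = 3), 21.5 ± 3.53 in O (n = 5) and 33.3 ± 7.82 in O-re (n = 8). Colec12, a scavenger receptor of the collectin family, had 13.5 ± 5.83, 26.02 ± 11.8, 6.64 ± 4.36 and 26.6 ± 15.3 CPM in the same groups. The lowest values were those of Phc2 (-0.839), a Polycomb subunit, Fnbp4 (-0.813), Trp53i11 (-0.789) and Nufip2 (-0.785).

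These 12 genes are the extremes of r in the same libraries, so their further values are descriptions too: after group means were subtracted, r ranged from 0.608 (Mical2) to 0.886 (Gusb) for the 8 highest and from -0.809 (Fnbp4) to -0.629 (Trp53i11) for the 4 lowest. Of the other members, for Igfbp4 r was 0.476 over all libraries and 0.098 after group means were subtracted, for Igf1r -0.342 and -0.112, for Irs2 -0.258 and -0.433, for Insr -0.092 and -0.149, and for Igf2r 0.005 and 0.328. The order of the closest genes depended on the measure: with Spearman's rho 3 of the 8 highest stayed among the 8 highest, and within library numbers 1 to 11 only 1 did.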

How the data were processed

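Poly(A) RNA (inputs of 2.4 to 147 ng) of sorted brain microglia was sequenced with stranded libraries as single reads of 50 nt, per the labels' protocols. The submitters' processing notes name FastQC 0.11.5, STAR, RSEM, limma and GRCm38, with no roles given. The authors deposited 1 table per library. Per the file headers it holds RSEM expected counts, TPM and effective lengths, of which 87.26% of the expected counts were whole within 1e-06. Expected counts divide reads among similar genes. Use of strand in counting was not given in the sources used here.

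Expected counts were rounded and analysed in R 4.3.3 with edgeR 4.0.16 (filterByExpr, TMM, glmQLFit and glmQLFTest, all 23 libraries, 1 coefficient per group), adjusted by Benjamini-Hochberg over 18720 genes and called under 0.05. The script was tested on simulated data. CPM are TMM-scaled; log2 CPM used a prior count of 2. The labels do not say more of the 23 samples than that they are separate, so p-values measure the spread between samples. TPM served for levels between genes. Lengths were compared by exact permutation tests written in Python 3.11.15 and adjusted by Benjamini-Hochberg with scipy 1.17.1. Pik3r2 and Rps6kb2 have 2 identifiers each, and the one with more counts was used. One gene of the list enters the counts and is not reported here.

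The members, lists and tests were chosen with earlier results of these data known. Named genes were all 7 members, up to 10 called list genes of largest change per comparison, examples of highest CPM for roles with none called, and the 8 highest and 4 lowest r with Igf1. Alternatives were other scalings, filters, DESeq2 1.42.0, voom with sample quality weights (limma 3.58.1), fits of subsets and runs, an effective-length offset, and leaving out each library.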

Additional observations from a re-analysis of the deposited data

Results flagged for a closer look

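In 21 sets of 1 member in 1 group of 4 to 10 libraries, the highest or lowest library was compared with its nearest neighbour by Dixon's criterion at the 95% level. Chance alone meets it in about 1 of 20 sets of normally distributed values. It was met in 5. Igf1r in young replicate 3 (18.9 CPM) lay far below the other 6 young libraries. Irs2 in old repopulated replicate 5 (143.9 CPM) lay far above the other 7 of its group. The other 3 concern Irs1, which is at or near 0 elsewhere: young replicate 2 (0.468 CPM), old replicate 4 (0.465 CPM) and old repopulated replicate 4 (0.163 CPM). A single library with counts among libraries at 0 always meets the criterion, so the rate of 1 in 20 does not hold for Irs1.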

How the results depend on the processing

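Each result was recomputed under up to 35 alternatives, 23 of which left out 1 library. Igf1 in O against Y was negative in all 35 and in O-re against O positive in all 35. These comparisons chose the set from the same libraries, so their signs are a description and no support. Igf1 moved with the run in O against Y (-0.50 in library numbers 1 to 11, -2.71 in 12 to 24) and in O-re against Y (0.94 in 1 to 11). In Y-re against Y it turned with voom (-0.11) and in library numbers 12 to 24 (-0.29), and ranged from -0.01 to 0.30 without single libraries.

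The number of called genes of the system (members included, Igf1 only in Y-re against Y) changed as follows. In O against Y, 1 gene became 6 with voom, 0 in library numbers 1 to 11 and 14 in 12 to 24 (1 to 2 without single libraries). In O-re against O, 1 became 3 with DESeq2, 2 with voom, 0 with only the groups compared, 0 in 1 to 11 and 14 in 12 to 24 (0 to 1). In Y-re against Y, 2 became 1 with no filter or the length offset, 5 with DESeq2, 11 with voom, 7 with only the groups compared and 7 in 12 to 24 (0 to 5). Without any single Y-re library it was 0, and without old repopulated replicate 2 it was 5. In O-re against Y, 12 became 19 with DESeq2, 33 with voom, 27 with the run as covariate, 0 in 1 to 11 and 41 in 12 to 24 (9 to 22). In O-re against Y-re, 0 became 17 with voom, 5 with the run as covariate and 33 in 12 to 24. The interaction went from 0 to 1 with voom and 8 in 12 to 24. Calls over all genes changed with the run too. Within 12 to 24 they were 15.7% of genes in O against Y, 12.7% in O-re against O and 9.3% in Y-re against Y. They were 41.1% in O-re against Y, 36.3% in O-re against Y-re and 8.87% in the interaction. Most other alternatives are given without that share, so no change is read as particular to the system. The cause of these changes was not tested.

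Among single members, Igf1r in O against Y turned in 1 to 11 (0.073). Igf2r in Y-re against Y turned with voom (-0.005), the run as covariate (-0.42) and in 12 to 24 (-0.20), and Irs2 in O-re against Y-re with the run as covariate (-0.12) and in 12 to 24 (-0.038). Without single libraries, values crossed 0 for Igf2r in O-re against O (-0.10 to 0.48), in Y-re against Y (-0.38 to 0.48) and in the interaction (-0.32 to 0.52), for Igfbp4 in O-re against Y-re (-0.339 to 0.058) and for Irs2 in O-re against Y-re (-0.058 to 0.33). None of these was called. No paired analysis was possible because the labels number the libraries in 1 series over all groups, and replicate numbers within groups were given here in accession order. The 3 Y-re libraries limit every comparison they enter, and genes with few counts, such as Irs1 and Igfbp2, are imprecise.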

Other observations

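The growth hormone axis, which drives IGF1 production in liver, and the feedback inhibitors of receptor signalling were called in no comparison. Jak2, the kinase of the growth hormone receptor, had 69.7 ± 4.75 CPM in Y (n = 7), 79.8 ± 5.79 in Y-re (n = 3), 107.9 ± 44.1 in O (n = 5) and 99.97 ± 32.9 in O-re (n = 8), with adjusted p-values by edgeR of 0.116 in O against Y and 0.0625 in O-re against Y. Ghr, the receptor itself, averaged at most 0.499 CPM in any group. Socs3, an inhibitor that cytokines and insulin induce, had 718.7 ± 80.8 CPM in Y and 541.5 ± 200 in O-re (adjusted p = 0.183), and Ptpn1, a phosphatase that acts on the receptors, 247.1 and 260.3 CPM.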
